A study of Mus musculus with 4 samples.

Results

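Group 2 innate lymphoid cells (ILC2s) of the lung express 73 well-covered long noncoding RNAs (lncRNAs) in these data, and the comparison asked what happened to them when Orai calcium channels were blocked with compound 5D. The 73 lncRNAs were selected on measured values, as the genes that the deposited table types as lncRNA and that had a mean of at least 10 CPM (counts scaled to a library total of 1000000) over the 4 libraries. They are 73 of 2791 lncRNA genes and of 22554 genes of all types in the table, and 8433 protein-coding genes met the same threshold. A minimum of 5 CPM would have given 135 lncRNAs and a minimum of 20 CPM 37. Because the mean level chose them, their levels are a description with no test. The rule did not use the difference between 5D and vehicle, but the members and lists were chosen with earlier results of these data known.

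The cells were sorted from the lungs of wild-type BALB/c mice aged 6 weeks and kept in culture overnight with IL-2, IL-7 and IL-33, so that all 4 libraries come from cytokine-activated cells. The control group (2 libraries) received vehicle and the treated group (2 libraries) received compound 5D, a small molecule that inhibits the Orai channels through which calcium enters lymphocytes. Nothing in the labels says whether the 2 libraries of a group came from separate mice or cultures, so p-values measure only the spread between these samples, which may be technical. The totals were 23239853 and 20096555 counts with vehicle and 26912708 and 28697265 counts with 5D. The 12 ILC2 markers together made up between 10270 and 11033 CPM in a library, while B cell, myeloid and fibroblast markers summed to at most 2.81 CPM and T cell markers to between 25.6 and 27.2 CPM, most of it Cd3g. Pecam1, the only endothelial marker in the table, was at 23.7 and 21.2 CPM with vehicle and 20.1 and 15.7 CPM with 5D, and its part in the results was not tested.

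LncRNAs are transcribed and processed like messenger RNAs but most are not translated. Some act in the nucleus, where they build bodies or silence chromatin, others act on proteins or microRNAs in the cytoplasm, and a further class matters for the small RNAs cut out of its introns. In lymphocytes several of them follow activation, survival or proliferation. Many genes of the present set carry only a clone name.

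The levels were very uneven. Gm26917 alone had a mean of 3203 CPM, followed by Malat1 at 638 CPM, AW112010 at 343 CPM, Gm10076 at 213 CPM, Gm42418 at 205 CPM and AI662270 at 188 CPM. Of the 73, 11 lncRNAs were at 100 CPM or more, 26 lay between 20 and 100 CPM, and 36 were under 20 CPM. The last to be included were 4933439C10Rik and A630072M18Rik at 10.4 CPM and 1110002L01Rik at 10.0 CPM, and the first to be left out were Gm36995 at 9.73 CPM, Gm12214 at 9.35 CPM and 1110038B12Rik at 9.31 CPM. Levels of different genes are comparable only per length, and per kilobase of merged exon the order changed. Gm26917 stayed first with 962 CPM per kb, ahead of Gm10076 with 556, AW112010 with 427, Gm42418 with 112 and Malat1 with 91.4 CPM per kb. The long nuclear RNAs moved down: Neat1, eighth by CPM, held 6.40 CPM per kb over 20771 exon bases, Xist held 6.04, and Kcnq1ot1, an unspliced transcript of 93092 bases, had the lowest level of all 73 at 0.444 CPM per kb. Only 6 of the 12 first lncRNAs were the same on both scales.

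**Figure D1:**
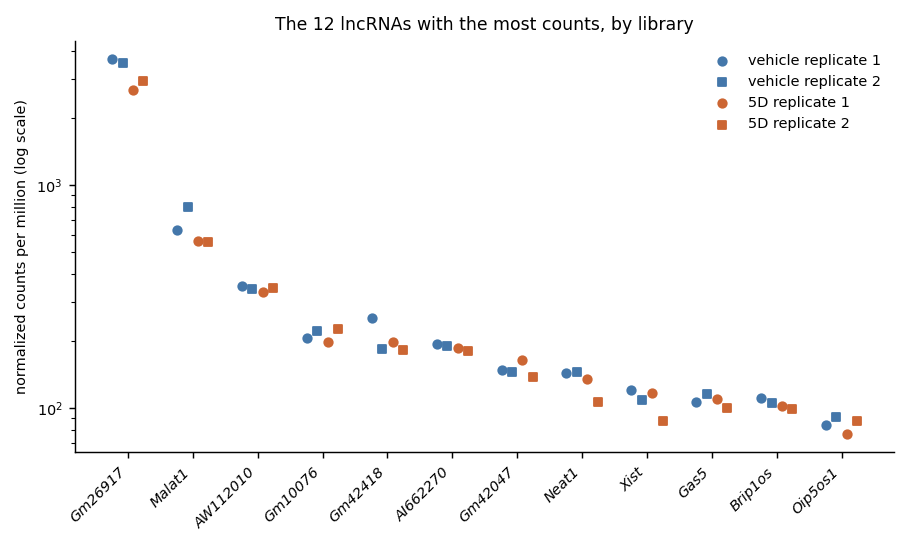
Normalized CPM (log axis) of the 12 lncRNAs with the highest mean, with 1 point for each library (blue, vehicle; orange, 5D; circles, replicate 1; squares, replicate 2). Gm26917 lies above all others, and its vehicle points (3669 and 3543) lie above its 5D points (2667 and 2941).

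The genomic setting limits what a count on several of these genes means. The strand used in counting is not given in the sources used here, so reads of overlapping genes on opposite strands cannot be told apart. In GENCODE M21 (mm10), 43 of the 73 lncRNAs share exon bases with another gene, 9 of them over at least 50% of their exon length, and 30 share none. A stretch of at least 150 nt with at least 95% identity to another gene's transcript was found for 17, and 48 had neither a 50% overlap nor such a copy. The annotation classes 28 of them as lincRNA, 23 as processed transcript, 17 as antisense, 4 as bidirectional-promoter lncRNA and 1, Gm47283, as protein coding. RefSeq lists 51 as lncRNA and 3, Ifi30, Trerf1 and Gm46430, as protein coding, so the type column of the table is not a uniform class. Of the 73, 18 start within 1000 bases of a protein-coding gene's start on the other strand. Whether the genes of such a pair run apart was not checked. Tug1 and Zfas1, which are among the 18, share exon bases with that coding gene, Morc2a and Znfx1.

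Gm10076 showed most plainly how a count can belong to another gene. It is a single-exon gene of 384 bases (chr14:105681828-105682211, plus strand, GENCODE M21), which RefSeq types as a pseudogene, and its transcript matched that of Rpl41, a protein of the large ribosomal subunit, with 99.5% identity over 383 nt. The reading frame of Rpl41, 78 bases with its stop codon, was present in Gm10076 with 0 differences. It is printed here, with the start and stop codon in capitals, because a read that lies within it matches both genes.
Rpl41 reading frame: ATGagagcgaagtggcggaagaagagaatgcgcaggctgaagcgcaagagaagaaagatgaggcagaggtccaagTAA
Gm10076 counterpart: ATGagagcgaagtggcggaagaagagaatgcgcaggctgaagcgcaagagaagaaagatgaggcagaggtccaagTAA
Gm10076 was at 207 and 221 normalized CPM with vehicle and 199 and 227 with 5D (log2 fold change -0.01, SE 0.07), and Rpl41 was at 710.0 and 746 with vehicle and 671 and 741 with 5D (log2 fold change -0.04, SE 0.05). In both genes the first replicate was lower than the second in either group, and the groups overlapped.

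After 5D, 1 of the 73 lncRNAs differed at an adjusted p under 0.05, and it was lower. Over all 17650 genes tested, 0.0963% passed this threshold, and all 73 lncRNAs were among the genes tested. Both groups were compared by edgeR's quasi-likelihood test, and p-values were adjusted by the Benjamini-Hochberg method across those 17650 genes. At an unadjusted p under 0.05, 9 lncRNAs were lower and 2 were higher, where the same threshold took 3.84% of all genes as lower and 3.5% as higher, against 12.3% and 2.74% of the 73. In 20 lncRNAs the treated libraries both lay under the lower control (27.4%, against 18.8% of all genes tested), and in 10 they both lay above the higher one (13.7%, against 18.7%). With a library left out, 3 lncRNAs passed the adjusted threshold without vehicle replicate 1 and 3 without vehicle replicate 2, 2 did without 5D replicate 1 and 1 without 5D replicate 2. The differences were small. The median log2 fold change of the 73 was -0.07, with 49 of them below 0, beside a median of -0.00 over all genes tested, 0.01 over the protein-coding genes at 10 CPM or more, and -0.07 over the 1625 lncRNAs that were tested below 10 CPM. The largest differences were 1.41-fold higher (Gm37401) and 1.33-fold lower (Gm44851), and 0 lncRNAs exceeded 0.5 on the log2 scale.

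Library 2 of the 5D group had the lowest value of the 4 for 34 of the 73 lncRNAs (46.6%), while it had the lowest for 25.0% of all genes tested. The other libraries were lowest for 16 (vehicle replicate 1), 9 (vehicle replicate 2) and 14 (5D replicate 1). Without 5D replicate 2, 2 lncRNAs were lower at an unadjusted p under 0.05 and 3 were higher, and without 5D replicate 1, 14 were lower. The part of this library in the lower values was not tested. In RNA from bulk cells, fewer cells of a type and less RNA per cell cannot be told apart.

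**Figure D2:**
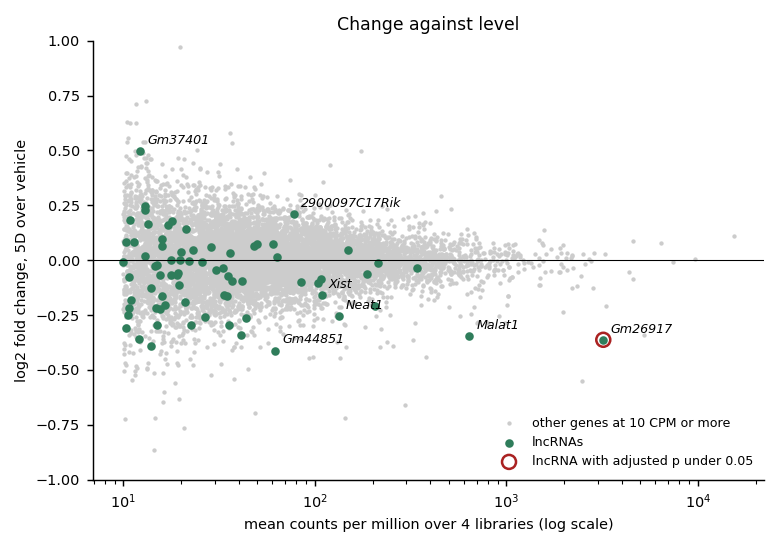
Log2 fold change of 5D over vehicle against mean CPM (log axis) for genes at 10 CPM or more, lncRNAs in green and other genes in grey (2 of the grey points lie outside the limits of 1 on the vertical axis). The ring marks Gm26917, the lncRNA with an adjusted p under 0.05, and the green points lie between -0.41 and 0.50.

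Gm26917 was the lncRNA that fell. Its values were 3669 and 3543 normalized CPM with vehicle and 2667 and 2941 with 5D, so that both treated libraries were below both controls. The log2 fold change was -0.36 (SE 0.04, adjusted p = 0.0148, edgeR's quasi-likelihood test), a level 0.778 times that of vehicle. Gm26917 is a gene of 3329 exon bases (chr17:39843013-39846341, plus strand) whose annotated end lies 12 bases before Rn18s-rs5, a RefSeq pseudogene of the 18S ribosomal RNA (chr17:39846354-39848202). RefSeq gave no entry for Gm26917 itself. The call was kept under every alternative that retained the gene, with log2 fold changes between -0.44 and -0.30.

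The rows beside it had values below 0 without passing the threshold. Gm42418 (chr17:39846958-39848788), of which 99.5% of the exon bases lie on the other strand of the ribosomal RNA row CT010467.1, was at 254 and 185 normalized CPM with vehicle and 197 and 183 with 5D (log2 fold change -0.21, SE 0.11, adjusted p = 0.742 by edgeR's quasi-likelihood test). Its groups overlapped, and vehicle replicate 1 stood above the other 3 libraries. Without vehicle replicate 1 its log2 fold change was 0.04, and without vehicle replicate 2 it was -0.42 with a call. CT010467.1 was at 5266 and 6447 normalized CPM with vehicle and 3964 and 5282 with 5D (log2 fold change -0.34, SE 0.11, adjusted p = 0.532, same test). The mitochondrial ribosomal RNA mt-Rnr1, which the mitochondrial genome encodes, fell as well (log2 fold change -0.66, SE 0.09, adjusted p = 0.0253, edgeR), and mt-Rnr2 had a log2 fold change of -0.55 (SE 0.12, adjusted p = 0.234, edgeR). Whether ribosomal RNA reads had a part in the lower value of Gm26917 was not tested.

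Because Gm26917 carried so many counts, it set much of the share of the library that fell on the 73 lncRNAs. This share was 0.749% and 0.751% of counts with vehicle and 0.640% and 0.643% with 5D, a difference of -0.108 percentage points between the means, and the Wilson 95% intervals lay between 0.637% and 0.646% in the 5D libraries and between 0.745% and 0.754% in the vehicle libraries. These intervals cover counting error only. The exact two-sided permutation test gave p = 0.3333, the smallest that 2 against 2 libraries allow. Gm26917 accounted for 0.367% and 0.353% of counts with vehicle and 0.269% and 0.293% with 5D. Without Gm26917 and Gm42418 the remaining 71 lncRNAs took 0.357% and 0.379% with vehicle and 0.351% and 0.332% with 5D. Without Malat1 as well, the values were 0.294% and 0.300% against 0.295% and 0.276%, and the groups overlapped. Mitochondrially encoded RNA took 0.981% and 1.06% of counts with vehicle and 0.809% and 0.808% with 5D, and leaving these genes out of the totals gave a difference of -0.110 percentage points for the 73 lncRNAs.

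**Figure D3:**
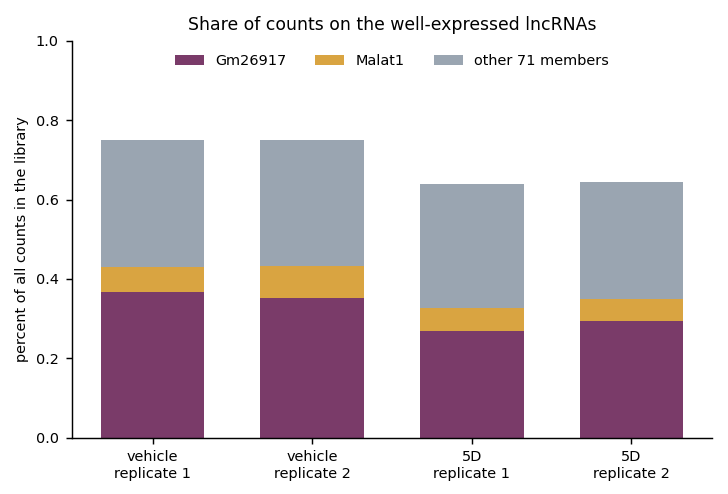
Percent of all counts in each library that fell on the 73 lncRNAs, split into Gm26917, Malat1 and the other 71. The bars reach 0.749% and 0.751% with vehicle and 0.640% and 0.643% with 5D, and the purple part, Gm26917, differs most between the groups.

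The list of nuclear RNAs, chosen with earlier results of these data known, had the lowest median log2 fold change of the lists, -0.34. All 3 genes of this list that the table holds, Malat1, Neat1 and Kcnq1ot1, were lower with 5D at an unadjusted p under 0.05, and 0 of 3 passed the adjusted threshold. Xist and Tsix, kept on another list, did not reach an unadjusted p under 0.05 (log2 fold changes -0.16 and 0.07). Malat1, a nuclear-retained RNA of splicing speckles, was at 628 and 800.0 normalized CPM with vehicle and 565 and 559 with 5D. Both treated libraries were below both controls, but the vehicle libraries lay farther apart than vehicle replicate 1 and the treated libraries did. The log2 fold change was -0.34 (SE 0.08, adjusted p = 0.351, edgeR's quasi-likelihood test), and it was -0.51 with a call without vehicle replicate 1 and -0.16 with no call without vehicle replicate 2. The gene (chr19:5795690-5802672, minus strand) shares 6.49% of its exon bases with Gm37376, an unclassified gene on the other strand, which was at 373 and 451 normalized CPM with vehicle and 366 and 362 with 5D (log2 fold change -0.18, SE 0.07, adjusted p = 0.621). Gm37376 lies within Malat1, and its libraries stood in the same order as those of Malat1.

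Neat1, the scaffold of paraspeckles, is encoded beside Malat1 (chr19:5824708-5845478) and shares no exon bases with another gene. It was at 143 and 146 normalized CPM with vehicle and 135 and 107 with 5D (log2 fold change -0.26, SE 0.09, adjusted p = 0.566, edgeR). Kcnq1ot1, the antisense RNA that silences the imprinted Kcnq1 domain in cis, was at 45.8 and 46.6 normalized CPM with vehicle and 42.6 and 30.4 with 5D (log2 fold change -0.34, SE 0.14, adjusted p = 0.621, edgeR). In both, the vehicle libraries lay close together, 5D replicate 1 lay just under them and 5D replicate 2 lay well below. Without 5D replicate 2 the log2 fold change was -0.10 for Neat1 and -0.12 for Kcnq1ot1, and neither had an unadjusted p under 0.05. Without 5D replicate 1 the values were -0.44 and -0.61. Frmd8, the protein-coding gene whose start is nearest to Neat1, had a log2 fold change of 0.02 (SE 0.06).

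The X inactivation centre gave 2 of the 73, Xist and Tsix, which overlap on opposite strands. Xist coats the inactive X chromosome in female cells, and Tsix is its antisense RNA. Xist was at 120.3 and 108 normalized CPM with vehicle and 117 and 87.4 with 5D (log2 fold change -0.16, SE 0.11, adjusted p = 0.827, edgeR's quasi-likelihood test). Without 5D replicate 2, the log2 fold change of Xist was 0.04. Tsix was at 40.2 and 54.1 with vehicle and 51.2 and 47.3 with 5D (log2 fold change 0.07, SE 0.13). Both had overlapping groups. Of the exon bases of Tsix 32.6% lie on those of Xist, so that part of its counts cannot be assigned. Jpx, Ftx and Firre, the other genes of the X inactivation list, were tested below 10 CPM. Of the 5 genes of the list 0 passed the adjusted threshold, and Firre was the 1 at an unadjusted p under 0.05. Firre was at 4.99 and 4.73 CPM against 3.79 and 2.65 CPM (log2 fold change -0.60, SE 0.27, adjusted p = 0.665, edgeR).

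Host genes of small nucleolar RNAs (snoRNAs) made up 9 of the 73. SnoRNAs guide the chemical modification of ribosomal RNA, and in mammals most are cut from the introns of a host transcript, whose spliced exons are often degraded. In GENCODE M21, they enclose 33 annotated snoRNAs or scaRNAs on their own strand: Gas5 holds 10, Snhg1 8, 2410006H16Rik, Snhg17 and Zfas1 3 each, Snhg3 and Snhg5 2 each, and Snhg15 and Snhg20 1 each. Snord80 in Gas5 is annotated under 2 gene identifiers at nearly the same position, and both are counted here. Of the 33 annotations, 21 have the box C (TGATGA) near their start and the box D (CTGA) near their end. These boxes mark the snoRNAs that direct methylation. Only these exact letters were matched, so a snoRNA of this kind with a variant box is not among the 21. Examples from 4 hosts are printed with both boxes in capitals, since the host's exons and the guide it releases are different products. For these 4 examples only the host was measured here.
Snord47 in Gas5, chr1:161038082-161038158, plus strand: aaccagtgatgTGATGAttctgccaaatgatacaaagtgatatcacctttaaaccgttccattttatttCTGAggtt
Snord50a in Snhg5, chr9:88521529-88521600, minus strand: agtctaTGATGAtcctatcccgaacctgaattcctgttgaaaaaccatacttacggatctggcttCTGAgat
Snord49a in 2410006H16Rik, chr11:62603450-62603521, plus strand: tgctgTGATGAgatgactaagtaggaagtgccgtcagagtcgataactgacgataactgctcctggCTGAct
Snord12 in Zfas1, chr2:167065276-167065365, plus strand: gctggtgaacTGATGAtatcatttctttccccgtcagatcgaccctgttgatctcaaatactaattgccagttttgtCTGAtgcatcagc
Of the small RNAs themselves, 3 of the 33 had a row in the table, and the one with most counts, Snora73b in Snhg3, was at 0.605 and 0.993 CPM with vehicle and 0.724 and 0.461 with 5D.

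None of the 9 hosts passed the test, and 0 of them had an unadjusted p under 0.05. Their median log2 fold change was -0.07, with 4 above and 5 below 0. With a library left out, this median was -0.02 (vehicle replicate 1), -0.000730 (vehicle replicate 2), -0.13 (5D replicate 1) and -0.03 (5D replicate 2). Gas5, named for its rise in growth-arrested cells, was the highest of them with 107 and 116 normalized CPM with vehicle and 109 and 99.9 with 5D (log2 fold change -0.09, SE 0.07). Its groups overlapped, and the 95% interval of the difference was -0.23 to 0.05. Zfas1 had the lowest value, 17.2 and 18.1 with vehicle and 16.7 and 13.9 with 5D (log2 fold change -0.21, SE 0.14, adjusted p = 0.824, edgeR). Snhg17 had the highest, 18.7 and 21.9 with vehicle and 22.5 and 22.2 with 5D (log2 fold change 0.14, SE 0.13). Snhg15 was at 34.4 and 36.2 against 31.2 and 32.1 (log2 fold change -0.16, SE 0.10) with groups that did not overlap. Snhg3, Snhg5, Snhg20 and 2410006H16Rik had log2 fold changes of -0.16, 0.06, -0.07 and 0.05 and overlapping groups. Of the exon bases of Snhg3 83.3% lie on those of other genes. Snhg1 starts 106 bases from Slc3a2, the heavy chain of several amino acid transporters. Snhg1 had a log2 fold change of 0.00 (SE 0.14), too close to 0 to give a sign, and Slc3a2 of -0.17 (SE 0.04, adjusted p = 0.361, edgeR). Counted over the wider list of 21 host genes, 17 were in the table and tested, 0 passed the adjusted threshold, and 1 was lower at an unadjusted p under 0.05. That gene was Snhg4, which the table types as lncRNA and protein coding at once and which therefore is not among the 73 (19.7 and 21.6 CPM against 17.6 and 15.95 CPM, log2 fold change -0.31, SE 0.13, adjusted p = 0.645, edgeR).

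The microRNA hosts had values below 0 without a call. A microRNA pairs with messenger RNAs through its seed, bases 2 to 8, and lowers their translation and stability. Dleu2 (chr14:61602839-61682373, minus strand) holds Mir15a and Mir16-1, and Mir22hg (chr11:75461539-75466676, plus strand) holds Mir22. The mature sequences from RefSeq (GRCm38.p6) are given with the seed in capitals, to show that both microRNAs of Dleu2 share 1 seed and that of Mir22hg has another.
mmu-miR-15a-5p: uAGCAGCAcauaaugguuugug
mmu-miR-16-5p: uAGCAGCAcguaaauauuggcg
mmu-miR-22-3p: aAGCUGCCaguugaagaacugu
Dleu2 was at 38.0 and 40.1 normalized CPM with vehicle and 34.5 and 29.3 with 5D (log2 fold change -0.29, SE 0.11, adjusted p = 0.579, edgeR). Mir22hg was at 19.8 and 20.6 with vehicle and 19.4 and 18.05 with 5D (log2 fold change -0.11, SE 0.13). In both genes the groups did not overlap, and 5D replicate 2 was the lowest library. Without it the log2 fold change of Dleu2 was -0.18. The libraries do not measure mature microRNAs, so nothing is known from them about the levels of the 3 printed. Of the list of 8 microRNA hosts, 5 were tested and all had values below 0, from -0.92 for Mir155hg (1.42 and 2.49 CPM against 1.26 and 0.801 CPM, SE 0.46, adjusted p = 0.717, edgeR) to -0.10 for Mir17hg, and 0 passed the adjusted threshold.

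**Figure D4:**
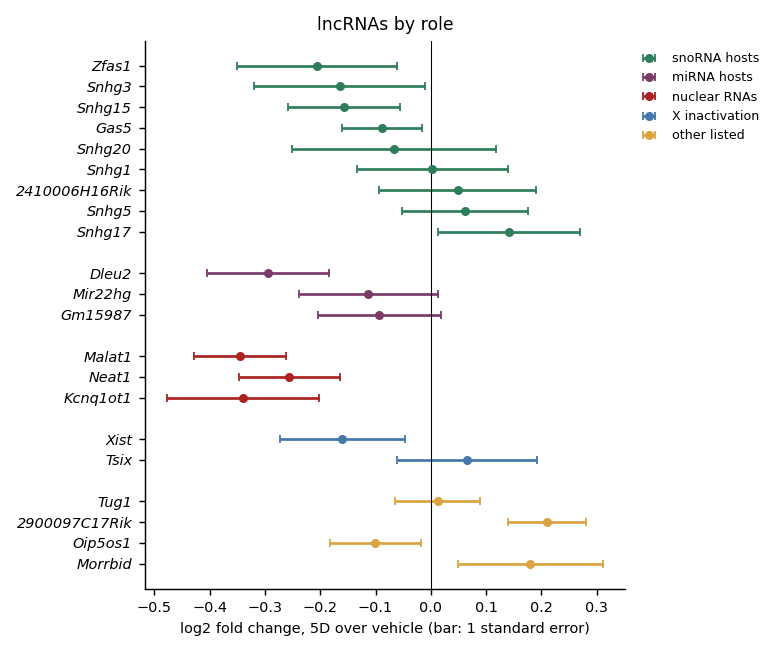
Log2 fold change of 5D over vehicle for lncRNAs grouped by role, with bars of 1 standard error from edgeR's fit. The 3 RNAs of the nuclear list lie between -0.34 and -0.26, the 9 snoRNA hosts spread on both sides of 0, and 2900097C17Rik lies at 0.21.

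Among lncRNAs linked to growth, stress and lymphocyte survival, the clearest value was that of 2900097C17Rik, the mouse Norad, and it was higher. Norad binds Pumilio proteins, repressors of messenger RNAs that recognise the motif TGTANATA. It is a gene of 4915 exon bases (chr2:156388065-156392979, minus strand), and its longest transcript holds 11 copies of this motif on the sense strand, which is 2.24 per kb and the highest density among the 73. Of the 73, 26 hold at least 1 copy in their longest transcript, and 2 hold at least 8, Norad and Kcnq1ot1. The 100 bases from 2369 to 2468 of the transcript are printed with 2 of the motifs in capitals, because this gene holds them at the highest density. The match is a description of letters and not of binding.
Norad stretch: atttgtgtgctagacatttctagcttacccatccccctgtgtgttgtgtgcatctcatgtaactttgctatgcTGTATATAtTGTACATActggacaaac
Norad was at 72.6 and 71.5 normalized CPM with vehicle and 83.3 and 83.4 with 5D. The libraries of each group lay almost on each other and the groups did not overlap, with a log2 fold change of 0.21 (SE 0.07, adjusted p = 0.552, edgeR's quasi-likelihood test). Its transcript has a near-identical stretch of 2537 nt in Gm7292, which was at a mean of 4.10 CPM.

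Tug1, Oip5os1 and Morrbid did not reach an unadjusted p under 0.05. Tug1, an RNA needed for normal development of the retina and the male germ line, was at 63.7 and 63.0 normalized CPM with vehicle and 63.5 and 64.4 with 5D (log2 fold change 0.01, SE 0.08, 95% interval -0.14 to 0.16). Oip5os1, also called Cyrano, which triggers the decay of a microRNA, was at 84.5 and 91.6 with vehicle and 76.9 and 87.3 with 5D (log2 fold change -0.10, SE 0.08). Morrbid, which controls the lifespan of short-lived myeloid cells by repressing the neighbouring gene of the death factor Bim, was at 16.4 and 17.4 with vehicle and 18.4 and 19.8 with 5D (log2 fold change 0.18, SE 0.13, adjusted p = 0.833, edgeR). Tug1 and Oip5os1 had overlapping groups and Morrbid did not. The list of growth and stress RNAs had 9 tested genes with 0 calls, and at an unadjusted p under 0.05 Norad was higher and Dleu2 was lower. The list linked to lymphocytes and to NFAT, the calcium-dependent factor downstream of Orai, had 4 tested genes with 0 calls and 0 at an unadjusted p under 0.05. Of the imprinted RNAs 4 were tested with 0 calls and Kcnq1ot1 was the 1 at an unadjusted p under 0.05. Of the structural RNAs 3 were tested with 0 calls, and the 1 at an unadjusted p under 0.05, Terc, had at most 6 counts in a library.

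AW112010 and AI662270 had close values in all 4 libraries. AW112010, a transcript that immune cells induce on activation, was at 352 and 343 normalized CPM with vehicle and 333 and 345 with 5D (log2 fold change -0.04, SE 0.05, 95% interval -0.13 to 0.06). AI662270 was at 193 and 191 with vehicle and 186 and 181 with 5D (log2 fold change -0.06, SE 0.05). In AW112010 the groups overlapped, while in AI662270 both treated libraries lay just under both controls. Gm42047 was at 148 and 145 with vehicle and 164 and 138 with 5D, and Brip1os at 111 and 105 with vehicle and 102 and 98.8 with 5D. The 5D libraries of Gm42047 lay on either side of its controls. The spread between the 2 libraries of a group had a median of 0.11 (vehicle) and 0.14 (5D) on the log2 scale over the 73.

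The lncRNAs with the lowest values included several that run antisense to coding genes. Gm44851 (chr7:80404269-80406577, plus strand) overlaps Furin, a protease that cleaves proproteins, over 5.11% of its exon bases. It was at 71.3 and 70.9 normalized CPM with vehicle and 66.0 and 41.0 with 5D, so that a single library set the size of the difference (log2 fold change -0.41, SE 0.16, adjusted p = 0.612, edgeR). Without 5D replicate 2 the log2 fold change was -0.11, and without any other library the gene passed the adjusted threshold, with -0.80 when 5D replicate 1 was left out. Furin itself was at 2389.6 and 2228 against 2225 and 2007 normalized CPM (log2 fold change -0.13, SE 0.05, adjusted p = 0.598, edgeR). Mypopos was at 15.7 and 16.04 with vehicle and 12.8 and 11.4 with 5D (log2 fold change -0.39, SE 0.15, adjusted p = 0.578, edgeR), and 4931406G06Rik at 45.8 and 49.6 with vehicle and 40.6 and 38.9 with 5D (log2 fold change -0.26, SE 0.09, adjusted p = 0.566, edgeR). In both, the 2 treated libraries lay below the 2 controls. 5031425E22Rik, which starts 172 bases from Kmt2e, was at 11.5 and 15.8 with vehicle and 10.7 and 10.5 with 5D (log2 fold change -0.36, SE 0.18, adjusted p = 0.717, edgeR). Vehicle replicate 2 stood above the other libraries, and the log2 fold change was -0.12 without it and -0.58 without vehicle replicate 1.

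For Gm28592 and Gm37401, too, the count is hard to separate from that of a coding gene. Gm28592 (chr10:111506575-111507662, minus strand) shares 98.1% of its exon bases with Phlda1, a gene induced by T cell receptor signals, on the other strand. Gm28592 was at 28.3 and 30.0 normalized CPM with vehicle and 25.5 and 23.2 with 5D (log2 fold change -0.26, SE 0.11, adjusted p = 0.647, edgeR), and Phlda1 at 70.4 and 74.9 against 60.1 and 61.3 (log2 fold change -0.26, SE 0.08, adjusted p = 0.520). In both genes the treated libraries lay below the controls, and the 2 log2 fold changes were alike. Gm37401 (chr9:108337089-108338273, minus strand) shares 93.4% with the small GTPase gene Rhoa. It was at 10.0 and 10.3 normalized CPM with vehicle and 14.5 and 14.3 with 5D (log2 fold change 0.50, SE 0.15, adjusted p = 0.520, edgeR), while Rhoa was at 501 and 522 against 499 and 528 (log2 fold change 0.00, SE 0.05). The treated libraries lay above the controls for Gm37401, while for Rhoa the groups overlapped.

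The remaining lncRNAs among the 10 higher ones with the smallest p were D430036J16Rik (log2 fold change 0.25), B230354K17Rik (0.23), D330041H03Rik (0.18), Gm46430 (0.16), Dubr (0.16) and AU020206 (0.07), with unadjusted p between 0.153 and 0.385. All of these but AU020206 lie under 20 CPM. B230354K17Rik was at 10.7 and 13.1 normalized CPM with vehicle and 14.5 and 13.4 with 5D, and AU020206 at 58.6 and 58.7 with vehicle and 62.6 and 60.7 with 5D. In Gm46430 the groups overlapped, and in the others both treated libraries were above both controls.

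**Figure D5:**
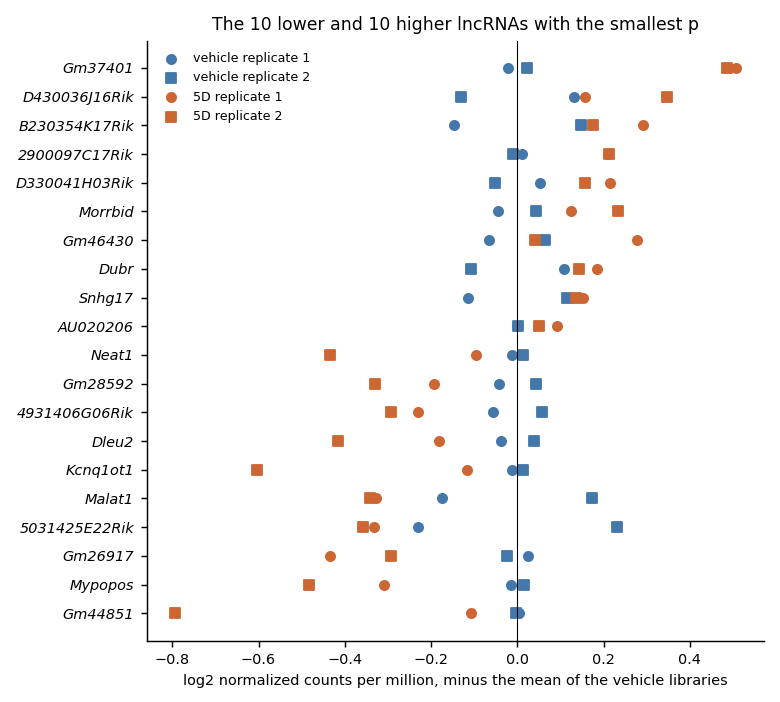
Each library's log2 normalized CPM minus the mean of the vehicle libraries, for the 10 lower and 10 higher lncRNAs with the smallest p (blue, vehicle; orange, 5D; circles, replicate 1; squares, replicate 2). In Gm44851, Kcnq1ot1 and Neat1 the orange square (5D replicate 2) lies far to the left of the orange circle, and in Gm37401 and 2900097C17Rik the orange points lie together on the right.

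Over the set, an lncRNA and the protein-coding gene that overlapped it or had the nearest start gave weakly related values. The nearest start could be far away, up to 214991 bases for Gm10076 and Spry2. Some of these coding genes had few counts, such as Rab30 at a mean of 0.123 CPM. For 62 lncRNAs with a tested coding gene that overlapped their exons or had the nearest start, Pearson's r of the log2 fold changes was 0.31 and Spearman's rho 0.22, across genes that share the same 4 libraries and are not independent. The sign was the same in 32 of the 62, in 19 of 30 pairs with shared exons and in 13 of 32 pairs without. Spearman's rho was 0.44 with shared exons and 0.07 without, and Pearson's r was 0.33 and 0.30. The 18 lncRNAs that start within 1000 bases of a coding gene's start on the other strand had a median log2 fold change of -0.05. For the 17 antisense ones in GENCODE M21 the median was -0.09. Of the 48 lncRNAs with neither a 50% exon overlap nor a near-identical copy, 34 were below 0, with a median of -0.07, and Gm26917 was the only call among them. Copies were sought only among GENCODE M21 transcripts of genes in the table, so a match to other sequence would not have been found. Gm26917 ends 12 bases before a pseudogene of the 18S ribosomal RNA, so its place among the 48 does not show that its counts are its own.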

How the data were processed

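RNA from sorted lung ILC2s was measured in 2 vehicle-treated and 2 5D-treated libraries. The authors deposited 1 table of estimated counts per gene. The submitters' processing notes name CASAVA 1.8.2, STAR 2.6.1, Partek and the build mm10, and the strand of counting is not given in the sources used here. Between 59.3% and 63.0% of the deposited estimated counts were whole within 0.01, so they were rounded before testing, although a test on raw counts had been planned. All 4 sample columns were mapped by their names, and 0 columns were left unmapped. Library totals lay between 20096555 and 28697265 counts, and the number of libraries limits the precision. Genes were kept where normalized counts averaged 1 or more and summed to 10 or more (17650 tested, 4904 not). Upper-quartile factors and edgeR 4.0.16 (R 4.3.3, quasi-likelihood test, Benjamini-Hochberg adjustment over all genes tested, threshold 0.05) compared 5D with vehicle, without covariates. The biological coefficient of variation was 8.51%. Normalized CPM uses these factors.

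The members and lists were chosen with earlier results of these data known. Named lncRNAs were those called, the 10 lower and 10 higher with the smallest p, the 12 with the highest mean, the 3 on either side of the threshold, and those on lists of snoRNA hosts, microRNA hosts, X inactivation, nuclear, imprinted, growth and stress, NFAT and lymphocyte, ribosomal RNA overlapping and structural RNAs. Genes with positions were matched to GENCODE M21 (73 of 73, 70 at equal positions), and copies were found with BLAST 2.17.0. Sequences were read from GENCODE M21 transcripts, the mm10 genome or RefSeq (GRCm38.p6). The code was tested on simulated data. Alternatives were TMM and DESeq2 1.42.0 size factors, DESeq2's Wald test, limma 3.58.1 with voom, other filters, counts not rounded, a replicate block, each library left out, and totals without some genes.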

Additional observations from a re-analysis of the deposited data

How the results depend on the processing

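Of 511 values of named lncRNAs recomputed under alternatives, 487 kept direction and side of the threshold, 7 newly passed it, 0 lost it and 17 changed sign. The number of lncRNAs called (1) became 2 without a filter on low counts and 2 with the replicate block, both by adding Malat1. Replicate numbers did not pair the samples (correlation of deviations 0.0147), so they share only a number. It was 1 to 3 with each library left out, where the lone library of a group is assumed to vary like the other group. It was 0 when Gm26917 and Gm42418 were left out altogether, an alternative chosen after seeing the data, since the called gene is then not tested. The count at an unadjusted p under 0.05 and lower was 2 to 14 with each library left out, and the median of the snoRNA hosts -0.132 to -0.000730. Minimum levels of 5 and 20 CPM gave 135 and 37 lncRNAs. The difference in the share of counts was -0.0267 percentage points without the ribosomal RNA overlapping genes and -0.110 without mitochondrially encoded genes. Of the 12 first by CPM, 6 were among the 12 first per kilobase. The log2 fold change of 1110002L01Rik was 0.00207 with TMM factors and that of Snhg1 -0.00356 with limma-voom. With each library left out, the ranges were -0.107 to 0.0805 for 1110002L01Rik, -0.11 to 0.11 for Snhg1, -0.421 to 0.0361 for Gm42418, -0.14 to 0.29 for Tsix, -0.11 to 0.0758 for Gm10076, -0.34 to 0.0177 for Snhg3, -0.0220 to 0.14 for Snhg5, -0.0827 to 0.23 for 4933439C10Rik, -0.0867 to 0.17 for Gm42047, -0.39 to 0.20 for Snhg20 and -0.39 to 0.0363 for Xist. The cause of these changes was not tested. With 2 libraries a group, an exact permutation test cannot go below p = 0.3333. The deviations of same-numbered libraries correlated at 0.0147. With 2 libraries a group this is a single value, so it cannot decide whether the samples were paired.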
